A study of Homo sapiens with 22 samples.

Results

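Cluster 2 of the untreated WM989 experiment held 1588 of 12531 cells (12.7%, exact 95% interval 12.1 to 13.3). Its members were taken from the authors' cell metadata, as every cell whose deposited cluster label was 2. The same metadata assigned clusters 2, 8 and 9 to the primed state, and cluster 2 made up 1588 of these 2843 primed cells (55.9%, 54.0 to 57.7). The other primed cells were the 633 of cluster 8 and the 622 of cluster 9, and the remaining 9688 cells, in 8 clusters, were the non-primed, drug-susceptible cells. Across its 3 single-cell experiments the series held 54001 cells.

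WM989 is a human melanoma cell line, and the cells of this experiment had received no drug but carried a lentiviral lineage barcode with a GFP reporter. The study asked what makes a melanoma cell enter or leave the primed state. According to its methods, mixed cells and EGFR/NGFR-high sorted cells were grown in separate wells, and each was divided over more than one channel of the 10x chip. The deposited cell metadata name 8 wells, 4 as r1 and 4 as r2. They did not say which wells came from the sort, so wells are given by number. The 8 wells are libraries of 1 cell line, and wells of the same replicate are not known to be separate cultures. Parallel data came from WM983B, a second untreated melanoma line profiled in 1 library, from barcoded WM989 cells left untreated or given TGFB1 (5 ng/mL), the TGF-β receptor inhibitor LY2109761 (TGFBRi, 4 µM) or the PI3K inhibitor GDC-0941 (PI3Ki, 2 µM) for 5 days, with 2 libraries each, and from ATAC-seq of untreated WM989 cells in 4 sorts named EGFR-NGFR-High, EGFR_High, NGFR-High and Mix, with 3 libraries each. The methods list no mixed sort for ATAC-seq but one of cells without either marker, and whether Mix is that sort is not stated.

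Primed melanoma cells are rare drug-naive cells that survive combined BRAF and MEK inhibition more often than their neighbours. They carry high levels of receptor genes such as EGFR, NGFR and AXL, and low levels of the melanocyte factors SOX10 and MITF and of the pigment genes that these factors drive. Chemokines such as CCL2 and CCL5 are secreted proteins that draw monocytes and T cells, and interferon-stimulated genes are the antiviral genes switched on when interferon or cytosolic nucleic acid is sensed.

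The label under which cluster 2 is described, primed G1 inflammatory cells, is set beside the data here without a test. All 8 marker genes (CCL2, CCL5, PRSS35, MMP3, CEMIP, G0S2, WISP1 and IGFBP7) had their highest level in cluster 2 among the 3 primed clusters. They were given for this cluster together with its label, so their levels cannot check the label. The authors' phase calls placed 93.8% of cluster 2 cells in G1 (92.5 to 94.96), 4.97% in S and 1.196% in G2/M. Of 14 genes by which the study describes the primed state, 13 were more than 2-fold above the non-primed cells, as were 11.4% of all 6373 genes. The study names some of the 14 from this same experiment, so this count is a description. For the word inflammatory, genes were taken from lists of which only members at 20 counts per 1000000 (CPM) or more were counted. Of these, 2 of 4 chemokines (CCL2 and CCL5), 1 of 6 cytokines (IL6), 5 of 20 interferon-stimulated genes and 0 of 11 NF-κB factors and targets were more than 2-fold above the other primed clusters, as were 0.627% of all 6064 genes at that level. For a list of 11 genes a count of 0 lies near that share. CCL2 and CCL5 are themselves markers given for the cluster. Of the primed clusters, CCL5, IL6, IFIT2, OASL and RSAD2 reached 20 CPM only in cluster 2, so they entered these counts through it.

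Because the clusters had been called from these same counts, a difference between cluster 2 and another cluster is a description and carries no test. Levels are CPM of the counts summed over the cells of a cluster, with exact 95% Poisson intervals, and all intervals cover counting error only. A gene is said to have passed the 2-fold rule when its CPM ratio was above 2 or below 0.5, with the same direction in r1 and in r2, and it had at least 20 CPM in one of the sums compared. A gene could reach that level through cluster 2 alone, so counts of higher genes include some that entered only for being high in it. Counts come from the 3′ end of transcripts, so levels of different genes are not compared with each other.

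Cluster 2 was distributed very unevenly over the wells. In r1 it held 44.4% of 450 cells in well 1, 46.1% of 1698 in well 2, 0.562% of 1601 in well 3 and 0.182% of 3841 in well 4. In r2 it held 54.2% of 408 cells in well 5, 54.2% of 581 in well 6, 1.17% of 2137 in well 7 and 1.54% of 1815 in well 8. Wells 1, 2, 5 and 6 therefore held 1519 of the 1588 cells (95.7%), and the other wells held between 7 and 28 each.

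**Figure D1:**
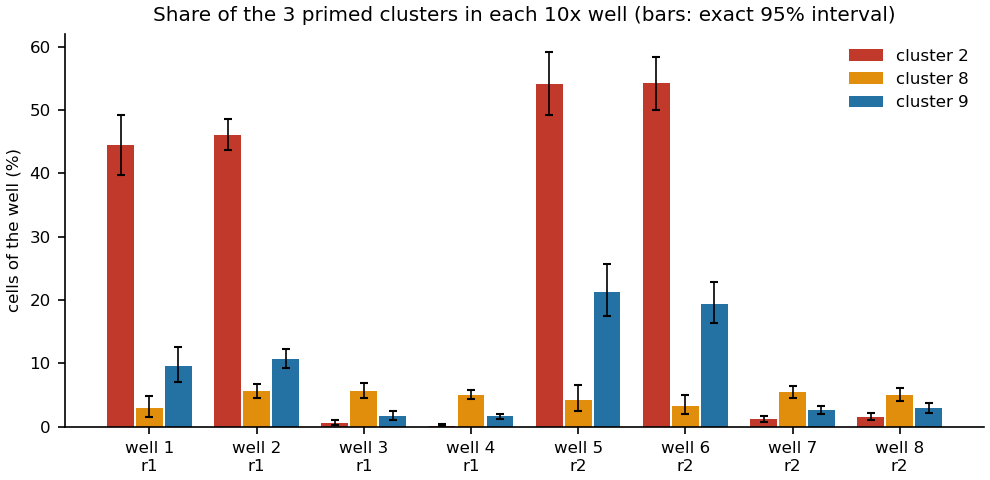
Percent of the cells of each 10x well (vertical axis) that belonged to cluster 2, 8 or 9, for wells 1 to 4 of r1 and 5 to 8 of r2, with exact 95% intervals as bars. Cluster 2 lies between 44.4% and 54.2% in wells 1, 2, 5 and 6 and at or below 1.54% in the others, while cluster 8 lies between 2.89% and 5.62% in every well.

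The other primed clusters did not share this distribution to the same extent. Cluster 8 ranged from 2.89% to 5.62% of the cells of a well, and its highest share was in well 3, where cluster 2 had 9 cells. Cluster 9 followed cluster 2 in part, with 9.56%, 10.7%, 21.3% and 19.4% in wells 1, 2, 5 and 6, against 1.64% to 2.92% in the other wells. Of the primed cells, cluster 2 made up 78.1%, 73.9%, 68.0% and 70.5% in wells 1, 2, 5 and 6 and 7.14%, 2.66%, 12.8% and 16.4% in wells 3, 4, 7 and 8. A comparison over all cells therefore sets cluster 2 cells from 4 wells against cluster 8 cells that came mostly from the other 4 (489 of 633), and some values are therefore also given within wells 1, 2, 5 and 6.

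A high share of G1 cells was not particular to cluster 2. Cluster 8 had 84.4% of its cells in G1, cluster 9 had 11.4% with 62.9% in G2/M, and the non-primed cells had 25.5% in G1, with 82.8% in cluster 10 and 73.3% in cluster 4. The median number of unique molecular identifiers (UMIs) per cell was 62895 in cluster 2, 38061 in cluster 8, 72036 in cluster 9 and 52835 in non-primed cells. It differed between replicates, at 51197 in r1 and 90852 in r2 for cluster 2. The median percent of mitochondrial UMIs was 7.70 in cluster 2, 9.45 in cluster 8, 7.49 in cluster 9 and 14.1 in non-primed cells. At least 1 UMI of a lineage barcode was read in 96.5% of cluster 2 cells, before the further filtering by which the study assigned lineages. Of all cells, 38 shared their cell barcode with a cell of another well, 11 of them in cluster 2.

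Against clusters 8 and 9 together, 38 genes were higher in cluster 2 by the 2-fold rule (0.627% of 6064) and 193 were lower (3.18%). Against the non-primed cells 724 were higher (11.4% of 6373) and 586 lower (9.2%). Against cluster 8 alone 96 genes were higher (1.64% of 5871) and 43 lower (0.732%), and against cluster 9 alone 47 were higher (0.758% of 6197) and 284 lower (4.58%). Of the 38 genes higher than in the other primed clusters, 38 were also higher in each of wells 1, 2, 5 and 6 taken alone, and 31, 25, 31 and 31 were higher in wells 3, 4, 7 and 8. Wells 1, 2, 5 and 6 held most of the cluster 2 cells by which the 38 were picked, so their direction there is no check. Of all genes tested, 41.3% to 48.4% were higher in cluster 2, depending on the well. Of the 38, 23 stayed past the 2-fold rule within wells 1, 2, 5 and 6 together, and 21 did when wells were weighted equally. With equal weights 34 of the 96 genes higher than in cluster 8 and 15 of the 43 lower ones stayed past it. When only cells called G1 were compared, 26 of the 38 remained, but only 52 of the 193 lower genes did. These settings also changed which other primed cells were compared. Among cells called G1 they were 534 of cluster 8 and 71 of cluster 9. Within wells 1, 2, 5 and 6 they were 144 of cluster 8 and 424 of cluster 9. Here and below, a change of ratio in these settings therefore cannot be told apart from this change of mix.

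The chemokine CCL2 was higher in cluster 2 than in clusters 8 and 9 and in non-primed cells. Its level in cluster 2 was 162 CPM (159 to 164), against 28.5 in cluster 8, 87.1 in cluster 9 and 0.727 in non-primed cells. By well, cluster 2 held CCL2 at 136, 140, 48.2 and 36.2 CPM in wells 1 to 4 of r1 and at 188, 195, 74.8 and 129 CPM in wells 5 to 8 of r2. The other primed cells of the same wells were at 86.2, 101, 8.57 and 15.7 CPM in r1 and at 78.8, 86.2, 20.4 and 38.6 CPM in r2, lower than cluster 2 in all 8 wells. The pooled ratio to the other primed cells was 2.51 (2.14 in r1, 2.93 in r2), and it was 1.82 within wells 1, 2, 5 and 6. Cluster 9 taken alone was at 102, 121, 5.16 and 13.8 CPM in r1 and at 88.2, 95.3, 24.9 and 51.1 CPM in r2, likewise below cluster 2 in each well, and the ratio to cluster 9, 1.85, did not pass the 2-fold rule.

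CCL5, a chemokine for T cells, was at 47.8 CPM (46.5 to 49.1) in cluster 2, 13.0 in cluster 8, 15.6 in cluster 9 and 0.206 in non-primed cells. By well it was at 22.5, 50.8, 44.8 and 4.02 CPM in r1 and at 49.4, 54.5, 4.51 and 79.8 CPM in r2, and it exceeded the other primed cells in 6 of 8 wells. The pooled ratio to the other primed cells was 3.27. Unlike CCL2, CCL5 was concentrated in few cells: 376 cells of cluster 2 had a UMI of CCL5 at full depth, and 1 cell held 622 UMIs, 11.6% of the cluster's total.

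Most other chemokines lay under the 20 CPM of the 2-fold rule. CCL7, which like CCL2 attracts monocytes, was at 15.5 CPM in cluster 2, 1.39 in cluster 8 and 8.57 in cluster 9. CXCL12, the ligand of CXCR4, was at 8.55, 0.871 and 7.23 CPM in the same order. Of 4 chemokines that passed the filter on low values, CCL2 and CCL5 were higher than in the other primed clusters and 0 were lower, against 0.627% and 3.18% of all genes. The remaining pair, named here after their values were seen, were CCL28, at 22.5 CPM in cluster 2, 23.6 in cluster 8 and 13.2 in cluster 9, and CXCL14, at 20.1, 13.8 and 22.6 CPM. The 4 had a median log2 ratio of 0.86 against -0.02 over all genes.

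The secreted and matrix genes among the markers showed the same order of clusters. PRSS35, a serine protease-like secreted protein, was at 187 CPM in cluster 2, 51.6 in cluster 8, 85.2 in cluster 9 and 2.56 in non-primed cells. Its level by well was 223, 182, 75.8 and 125 CPM in r1 and 207, 172, 96.4 and 86.1 CPM in r2, above the other primed cells in 8 of 8 wells, with a pooled ratio of 2.59 (2.15 within wells 1, 2, 5 and 6). CEMIP, which takes part in the breakdown of hyaluronan, was at 148 CPM in cluster 2, 63.7 in cluster 8, 70.1 in cluster 9 and 1.12 in non-primed cells, a ratio to the other primed cells of 2.19 pooled and 2.17 within wells 1, 2, 5 and 6. It was higher than in the other primed cells in 7 of 8 wells, the exception being well 8, with 85.3 CPM in cluster 2 and 126 CPM in cluster 8.

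IGFBP7, a secreted protein that binds insulin-like growth factors, had 1916 CPM in cluster 2, 642 in cluster 8, 1219.5 in cluster 9 and 22.4 in non-primed cells. The wells of r1 were at 2334, 2166, 1520 and 612 CPM in cluster 2, and those of r2 at 1699, 1612, 499 and 906 CPM. Its pooled ratio to the other primed cells, 1.93, did not reach the 2-fold rule and was 1.59 within wells 1, 2, 5 and 6. Non-primed cells of wells 1, 2, 5 and 6 held IGFBP7 at 88.0, 84.5, 94.2 and 101 CPM, and those of wells 3, 4, 7 and 8 at 8.55, 6.20, 13.7 and 14.3 CPM, so that the ratio to non-primed cells was 85.4 pooled and 21.8 within wells 1, 2, 5 and 6. Whether RNA released by primed cells adds to these levels was not tested.

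WISP1 (also CCN4), a matricellular protein of the CCN family, separated cluster 2 from cluster 8 more than from cluster 9. It was at 52.0 CPM in cluster 2, 5.35 in cluster 8, 34.1 in cluster 9 and 0.124 in non-primed cells. In wells 1, 2, 5 and 6 cluster 2 was at 57.6, 55.7, 52.4 and 48.0 CPM and cluster 9 at 53.2, 51.9, 37.7 and 31.2 CPM. G0S2, an inhibitor of triglyceride breakdown, was at 239.9 CPM in cluster 2, 30.4 in cluster 8, 193 in cluster 9 and 0.707 in non-primed cells. Its ratio to the other primed cells was 1.86 pooled, under the 2-fold rule, and 1.25 within wells 1, 2, 5 and 6. In wells 3 and 4, with 9 and 7 cluster 2 cells, G0S2 was at 1.72 and 0 CPM.

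MMP3, or stromelysin-1, a protease of the extracellular matrix, was at 44.4 CPM in cluster 2, 14.5 in cluster 8, 17.5 in cluster 9 and 0.118 in non-primed cells. By well its level was 8.72, 30.6, 0 and 0 CPM in r1 and 37.6, 89.6, 55.9 and 6.38 CPM in r2. It was the least even of the markers, since 248 cells had a UMI and 1 cell held 673 UMIs, 13.5% of the total. Of the 8 markers, which were given for this cluster, 6 passed the 2-fold rule against the other primed clusters, as did 0.627% of all genes. The exceptions were G0S2 and IGFBP7. Which markers exceeded a ratio of 2 depended on the cells compared, among which the mix of clusters 8 and 9 also differed, as given above. Among cells called G1 the ratios of G0S2 (4.71), IGFBP7 (2.57), WISP1 (4.68) and CCL2 (3.85) were above it and that of MMP3 (1.55) was not, and within wells 1, 2, 5 and 6 WISP1 (1.52) and CCL2 (1.82) were under it. Against cluster 8 all 8 passed the rule, with a median log2 ratio of 1.87, as did 1.64% of all genes. Against cluster 9 4 did, CCL5, PRSS35, MMP3 and CEMIP, with a median of 0.99 over the 8, as did 0.758% of all genes.

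**Figure D2:**
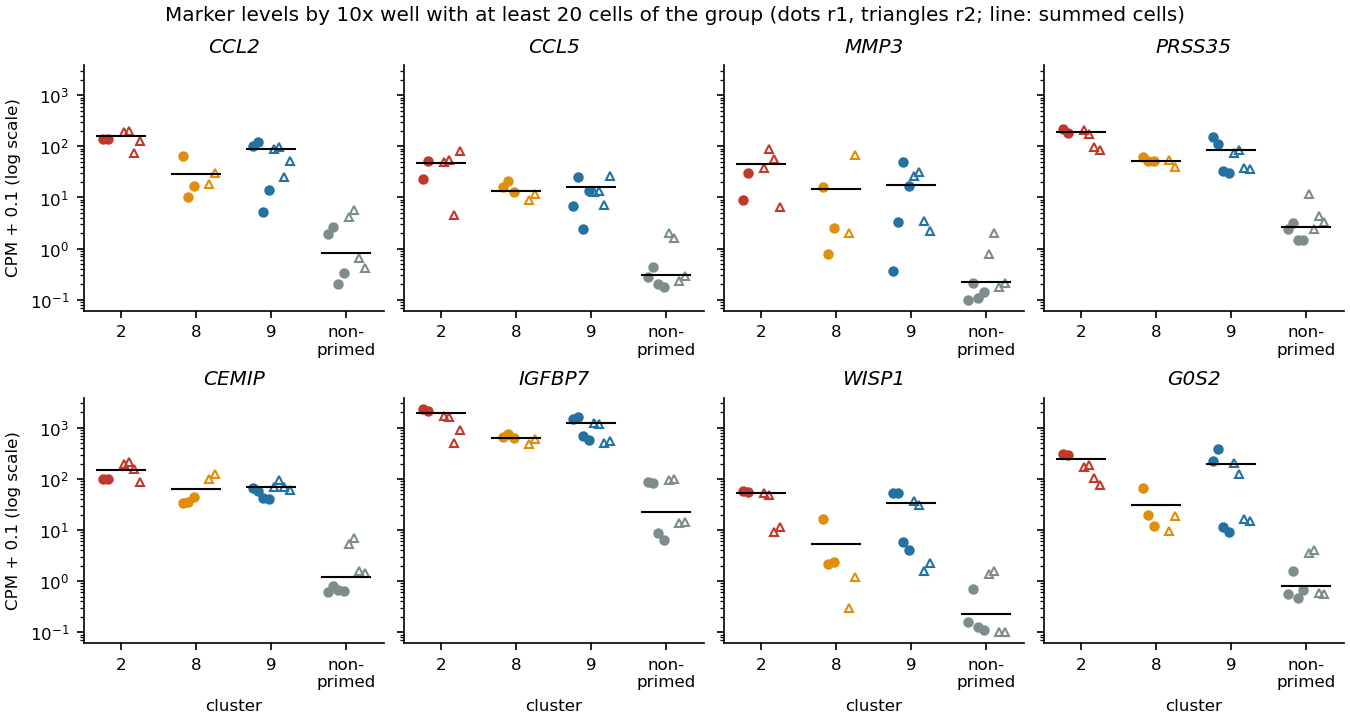
Level of the 8 markers (CPM plus 0.1, log axis) in cells of cluster 2, 8, 9 and in non-primed cells, one symbol per 10x well with at least 20 cells of the group (dots r1, triangles r2), with a line at the level of all cells summed. For WISP1 the wells of clusters 2 and 9 overlap, whereas for PRSS35 all wells of cluster 2 lie above all wells of cluster 8.

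Depth differed between the clusters, so each cell was also thinned to 10000 UMIs. At this depth IGFBP7 was found in 98.7% of cluster 2 cells, PRSS35 in 66.5%, CEMIP in 50.8%, CCL2 in 44.6%, G0S2 in 36.8%, WISP1 in 27.2%, CCL5 in 9.32% and MMP3 in 5.73%. In cluster 8 the same genes were found in 89.6%, 28.3%, 35.7%, 15.2%, 9.95%, 4.27%, 6.79% and 1.42% of cells, and in cluster 9 in 97.1%, 44.2%, 34.7%, 30.4%, 30.5%, 19.9%, 6.43% and 4.02%. Non-primed cells, at a median of 52835 UMIs before thinning, showed CCL2 in 0.599%, PRSS35 in 1.58%, IGFBP7 in 10.2%, CCL5 in 0.124% and MMP3 in 0.103% of cells. Among non-primed cells of wells 1, 2, 5 and 6, at a median of 82248 UMIs, IGFBP7 was found in 33.3% and CCL2 in 3.14%, and among those of the other wells, at 51066 UMIs, in 7.43% and 0.289%. At full depth CCL2 was found in 74.6% of cluster 2 cells, CCL5 in 23.7% and MMP3 in 15.6%.

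**Figure D3:**
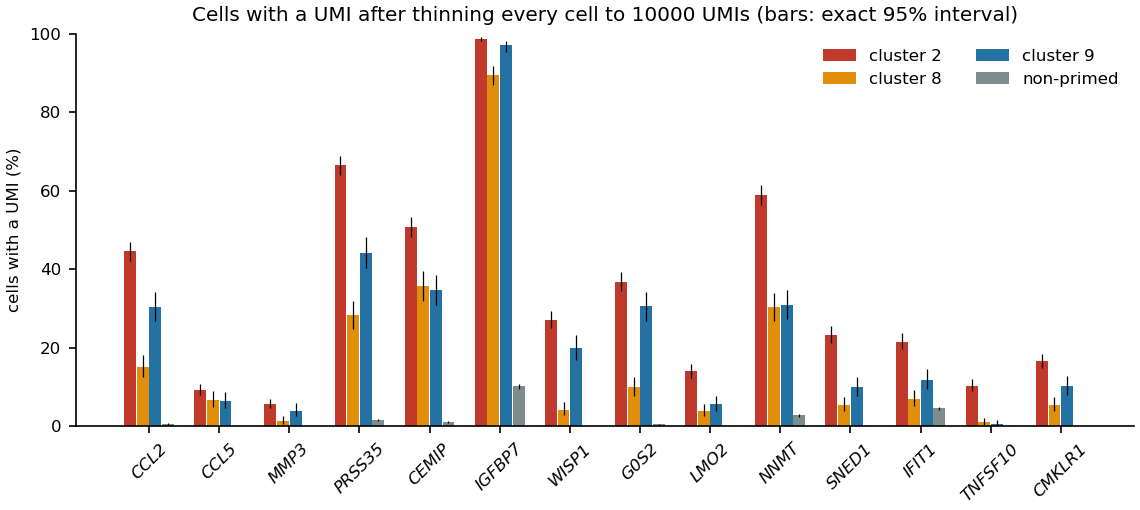
Percent of cells with at least 1 UMI of a gene (vertical axis) after every cell was thinned to 10000 UMIs, in clusters 2, 8 and 9 and in non-primed cells, with exact 95% intervals as bars. IGFBP7 reaches 98.7% of cluster 2 cells and MMP3 5.73%.

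Single cells of cluster 2 held more of the 8 markers than cells of cluster 8. Each marker was also found more often in cluster 2, so these shares do not show whether markers go together in a cell. At 10000 UMIs, 46.0% of cluster 2 cells (43.5 to 48.5) had at least 4 of the 8 markers, against 3.79% in cluster 8 and 26.5% in cluster 9. Among the 9688 non-primed cells 0 had 4 or more at this depth, which allows a share of cells with such UMIs of up to 0.0381% (exact upper bound). At least 6 markers were found in 4.597% of cluster 2 cells, 0 of cluster 8 and 1.61% of cluster 9. The shares depended on depth. Without thinning, at least 4 markers were found in 86.6% of cluster 2 cells, 30.5% of cluster 8, 69.8% of cluster 9 and 0.919% of non-primed cells, and at least 6 in 39.3%, 3.16%, 30.9% and 0.0929% in the same order. The UMIs of some markers came from few cells, the 10% of cluster 2 cells with most holding 72.6% of the G0S2 UMIs, 58.6% of those of CCL2, 39.9% of those of PRSS35 and 26.2% of those of IGFBP7.

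Beyond the markers, the genes with the largest ratios to the other primed clusters included LMO2 and CEBPD, which encode transcriptional regulators, and NNMT, FGF7, SNED1, CMKLR1, DKK1, LUM and IFIT1. NNMT, which methylates nicotinamide, was at 179.9 CPM in cluster 2, 56.9 in cluster 8, 50.7 in cluster 9 and 8.23 in non-primed cells. In cluster 2 its level was 247, 260.0, 102 and 121 CPM in r1 and 97.9, 97.8, 71.2 and 54.2 CPM in r2, above the other primed cells of the same well throughout. Its ratio to non-primed cells, 21.9 pooled, was 3.79 within wells 1, 2, 5 and 6. LMO2, known as a regulator of blood cell development, was at 24.6 CPM in cluster 2, 5.16 in cluster 8, 8.32 in cluster 9 and 0.0358 in non-primed cells, a ratio of 3.47 to the other primed clusters.

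FGF7, a growth factor for epithelial cells, was at 26.3 CPM in cluster 2, 10.3 in cluster 8 and 8.51 in cluster 9. SNED1, a matrix protein, was at 26.0, 6.03 and 11.3 CPM in the same order. CMKLR1, the receptor of the chemoattractant chemerin, was at 24.1, 4.87 and 14.2 CPM, and at 0.034 CPM in non-primed cells. Its ratio to the other primed clusters was 2.27 pooled and 1.85 within wells 1, 2, 5 and 6. DKK1, a secreted antagonist of Wnt signaling, was at 59.6, 44.5 and 9.004 CPM, so that its ratio of 2.61 to the other primed cells came from cluster 9. That ratio was 1.45 among cells called G1 and 1.48 with wells weighted equally, both under the 2-fold rule.

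CEBPD, a transcription factor of the acute phase response, followed a different order. It was at 36.8 CPM in cluster 2, 27.8 in cluster 8, 2.99 in cluster 9 and 25.6 in non-primed cells. Against the other primed cells the ratio was 2.91, which came mostly from cluster 9. Among cells called G1 it was 1.72, under the 2-fold rule. Against the non-primed cells the ratio was 1.44 pooled and 0.441 within wells 1, 2, 5 and 6, a turn of direction. LUM, the matrix proteoglycan lumican, was likewise above the other primed clusters, at 22.0 CPM with a ratio of 2.31, and below the non-primed cells, at 32.2 CPM. The genes higher in cluster 2 than in clusters 8 and 9 together were thus not all higher than in the non-primed cells.

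Several interferon-stimulated genes lay above the other primed clusters. Of 20 that passed the filter on low values, 5 passed the 2-fold rule upward and 0 downward (0.627% and 3.18% of all genes did), with a median log2 ratio of 0.78 against -0.02 over all genes. At 5 CPM or more there were 28, and 27 of them were above the other primed cells in both replicates, as were 4046 of all 10082 genes at that level. IFIT1, an antiviral protein that binds foreign RNA, was at 50.7 CPM in cluster 2, 14.4 in cluster 8, 25.8 in cluster 9 and 6.74 in non-primed cells. Its level in cluster 2 was 48.4, 43.5, 17.2 and 4.02 CPM in r1 and 54.5, 62.0, 15.3 and 59.8 CPM in r2. In well 4, with 7 cells, it was below the other primed cells, at 9.12 CPM, and in the other 7 wells it was above them. Its ratio to the other primed clusters was 2.37 pooled and 1.89 within wells 1, 2, 5 and 6.

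The remaining interferon-stimulated genes past the rule were IFIT2 at 42.4 CPM in cluster 2 (17.2 in cluster 8, 13.4 in cluster 9), OASL at 31.98 CPM (9.93 and 12.7), IFI6 at 453 CPM (128 and 277) and RSAD2 at 21.7 CPM (4.74 and 3.07). IFI6 is named here after its values were seen. Among cells called G1 the ratio of IFIT2 to the other primed clusters was 1.81, against 2.85 in all cells. RSAD2, the antiviral enzyme viperin, rested on few cells, since 1 cell held 1045 UMIs, 42.8% of the cluster's total, and without this cell and the top cell of the comparison its ratio of 5.83 became 4.096. The replicates gave ratios of 1.16 (r1) and 12.4 (r2). Against cluster 8 alone, 13 of 20 interferon-stimulated genes passed the rule upward (1.64% of all genes), and against cluster 9 alone 3 did (0.758%).

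TNFSF10, the death receptor ligand TRAIL, had the largest ratio of the cytokines. It was at 16.8 CPM in cluster 2, 1.55 in cluster 8, 0.968 in cluster 9 and 0.179 in non-primed cells, a ratio of 14.1 to the other primed cells (12.7 in r1, 16.6 in r2), but it stayed below the 20 CPM of the rule. By well it was at 26.4, 22.9, 3.44 and 24.1 CPM in r1 and at 12.5, 7.68, 0 and 5.58 CPM in r2. At 10000 UMIs it was found in 10.4% of cluster 2 cells, 1.11% of cluster 8 and 0.643% of cluster 9. IL6 passed the rule, at 25.6 CPM against 9.99 and 7.91. IL1B, which activates innate immune signaling, separated primed from non-primed cells but not cluster 2 from cluster 9, at 84.9 CPM in cluster 2, 23.5 in cluster 8, 78.6 in cluster 9 and 0.145 in non-primed cells. IL11 was at 92.7 CPM in cluster 2, 100.05 in cluster 8 and 197 in cluster 9, and it passed the rule downward against cluster 9 alone but not against both clusters together, at a ratio of 0.583.

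Class I antigen presentation genes were shifted by less. Of 8 that passed the filter 0 were past the rule against the other primed clusters (0.627% of all genes were higher), with a median log2 ratio of 0.43. At 5 CPM or more 11 of 12 were above the other primed cells in both replicates, TAP2 being the exception, against the 4046 of 10082 genes over the whole table. HLA-B was at 221 CPM in cluster 2, 105 in cluster 8, 168 in cluster 9 and 27.5 in non-primed cells, and B2M, the light chain of class I, at 2243, 1274, 1608 and 678 CPM. TAP2 is named here after its values were seen.

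Among complement genes, C1S was at 68.4 CPM in cluster 2, 22.9 in cluster 8 and 31.0 in cluster 9, and C1R at 63.4, 22.6 and 35.8 CPM. They encode the paired proteases of the first complement component, and they were the 2 of 5 complement and acute phase genes that passed the rule, as 0.627% of all 6064 genes did. Within wells 1, 2, 5 and 6 the ratio of C1R to the other primed clusters was 1.76, against 2.07 pooled. Both IGFBP2, at 426 CPM against 196 and 159.8, and IGFBP5, at 70.4 CPM against 41.9 and 23.6, passed the rule, so that 2 of 4 insulin-like growth factor binding proteins did (0.627% of all genes). Among cells called G1 the ratio of IGFBP5 to the other primed clusters was 1.75, under the rule. Of the 8 matrix metalloproteinases and TIMPs at 20 CPM or more only MMP3 passed it, as 0.627% of all genes did upward. MMP3 is itself a marker given for the cluster. Of the primed clusters it reached 20 CPM only in cluster 2, so it entered this count through it. MMP1, an interstitial collagenase, was at 2326 CPM in cluster 2, 1775 in cluster 8, 2085 in cluster 9 and 24.0 in non-primed cells. TIMP3, which inhibits such proteases, was at 2429, 1057, 1353 and 278 CPM.

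**Figure D4:**
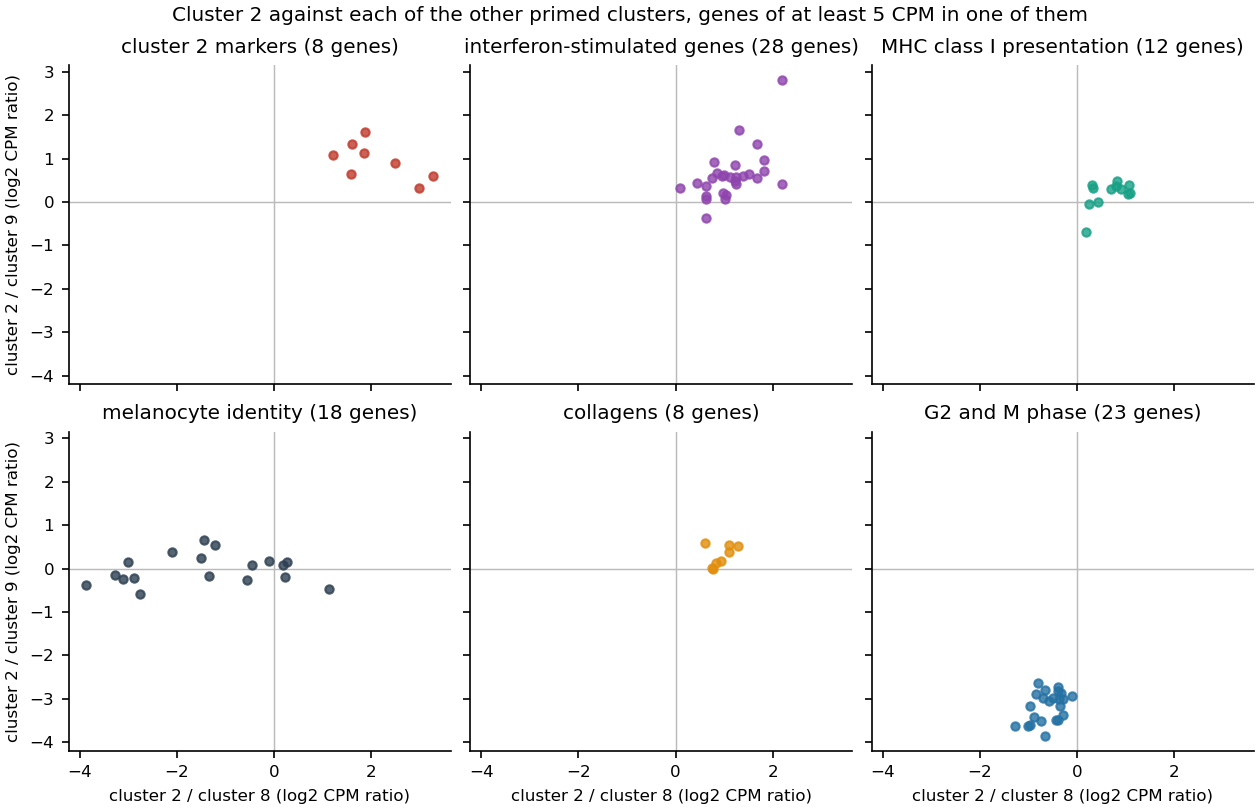
Log2 CPM ratio of cluster 2 to cluster 8 (horizontal axis) and to cluster 9 (vertical axis) for the genes of 6 lists with at least 5 CPM in one of them, one dot per gene. The 8 markers lie above 0 on both axes, the melanocyte genes spread along the axis of cluster 8 and the G2 and M phase genes lie below 0 on both, with a median of -3.03 against cluster 9.

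The genes lower in cluster 2 than in the other primed clusters were led by genes of cell division. All 22 genes of G2 and M phase that passed the filter were lower by the 2-fold rule, as were 6 of 20 S phase genes, against 3.18% of all genes. TOP2A, the topoisomerase of replicated chromosomes, was at 20.4 CPM in cluster 2, 32.3 in cluster 8, 298 in cluster 9 and 109.6 in non-primed cells, and MKI67, the proliferation antigen, at 40.2, 78.3, 488 and 233 CPM. Against cluster 8 alone 1 of 16 G2 and M phase genes passed the rule downward (0.732% of all genes), with a median log2 ratio of -0.62. When only cells called G1 were compared, TOP2A was higher in cluster 2 than in the non-primed cells, by 0.80 on the log2 scale, whereas MKI67 stayed lower, at a ratio of 0.654. FOSL1, an AP-1 factor, was lower than in the other primed clusters, at 123 CPM against 151 in cluster 8 and 335 in cluster 9, and above the non-primed cells at 59.6 CPM. Among cells called G1 its ratio to the other primed clusters was 0.572, which did not pass the 2-fold rule.

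Melanocyte identity genes were low in cluster 2 and in cluster 9 but less so in cluster 8. MLANA, a melanosome antigen, was at 24.2 CPM in cluster 2, 235 in cluster 8, 26.9 in cluster 9 and 1683 in non-primed cells, and PMEL, the fibril protein of melanosomes, at 32.5, 220.0, 48.6 and 2158 CPM. SOX10 was at 3.35, 27.1, 3.03 and 129.6 CPM, and MITF at 35.7, 90.4, 40.3 and 313 CPM. Of the melanocyte genes that passed the filter, 7 of 12 were lower than in cluster 8 and 0 of 9 lower than in cluster 9, against 0.732% and 4.58% of all genes. The ratios to the other primed clusters moved when wells were weighted equally, from 0.224 to 0.552 for MLANA and from 0.281 to 0.609 for PMEL, so that neither then passed the rule, and from 0.270 to 0.521 for SOX10, which was under the 20 CPM of the rule in this comparison. In the wells with few cluster 2 cells SOX10 was higher within cluster 2, at 6.89, 44.3, 10.8 and 10.4 CPM in wells 3, 4, 7 and 8 against 2.67 to 3.31 CPM in wells 1, 2, 5 and 6.

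Genes by which the study describes primed cells were also high in clusters 8 and 9. EGFR was at 56.9 CPM in cluster 2, 23.4 in cluster 8, 43.4 in cluster 9 and 3.37 in non-primed cells. NGFR, the neurotrophin receptor, was at 27.3, 34.4, 33.8 and 1.098 CPM, and it was below the other primed cells in 8 of 8 wells. AXL, a receptor tyrosine kinase, was at 35.8, 32.8, 63.5 and 0.469 CPM, and NT5E, which makes adenosine from AMP, at 190.0, 167, 226 and 24.4 CPM. Fibronectin (FN1) was at 4131, 2786, 3565 and 98.7 CPM, and VGF, a neuropeptide precursor, at 1365, 1558, 1268 and 749 CPM. Against the other primed clusters 0 of these 14 genes passed the rule in either direction, near the 0.627% higher and 3.18% lower of all genes, with a median log2 ratio of 0.34.

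Among genes of at least 20 CPM, the largest ratios of cluster 2 to the non-primed cells included those of CMKLR1 (707), LMO2 (686), ALOX5AP (659), IL1B (585), SIRPB1 (425), WISP1 (421), MMP3 (376), G0S2 (339), EREG (333) and CPA4 (325). ALOX5AP is needed for leukotriene synthesis, EREG is a ligand of EGFR, and CPA4 is a secreted carboxypeptidase. These ratios rest on non-primed levels under 1 CPM and fell within wells 1, 2, 5 and 6, to 242 for CMKLR1, 148 for LMO2, 73.6 for WISP1 and 126 for G0S2. At the other end, GJB1, a gap junction gene, was at 0.124 CPM in cluster 2 and 26.1 in non-primed cells, and RLBP1, a retinoid binding protein, at 0.293 and 51.1 CPM. TRPM1, a melanocyte channel, was at 0.586 and 51.9 CPM.

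Several lists were also summed over all their members, whether or not they passed the filter on low values. The 18 genes of TGF-β ligands, receptors and targets summed to 701 CPM in cluster 2, 429 in cluster 8, 534 in cluster 9 and 99.2 in non-primed cells. In the same order the 17 collagens summed to 2147, 1166, 1936 and 61.1 CPM and the 32 interferon-stimulated genes to 1936, 861, 1284 and 622 CPM. The 25 cytokines, at 407, 276, 425 and 15.5 CPM, and the 12 AP-1 factors, at 726, 593, 823 and 226 CPM, had higher sums in cluster 9 than in cluster 2. The 20 melanocyte genes summed to 522, 1260.2, 515 and 6167 CPM. TGFBR1, a TGF-β receptor, was at 213 CPM in cluster 2, 109 in cluster 8, 124 in cluster 9 and 26.1 in non-primed cells. COL1A1, a collagen, was at 171 CPM in cluster 2, 102 in cluster 8, 171 in cluster 9 and 1.69 in non-primed cells.

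Markers of other cell types were summed to look for cells that are not melanoma. The 20 leukocyte markers summed to 118 CPM in cluster 2, 94.2 in cluster 8, 118 in cluster 9 and 57.1 in non-primed cells, most of it CD68 at 96.1 CPM in cluster 2. The common leukocyte antigen PTPRC was at 0.0266 CPM in cluster 2, and CD3E, FCGR3A and TYROBP were at 0 CPM. The 12 fibroblast markers summed to 301, 183, 282 and 37.6 CPM, the 10 endothelial markers to 34.1, 26.95, 36.6 and 31.6 CPM, and the 11 epithelial markers to 169, 133, 126 and 118 CPM, with EPCAM at 0.00888 CPM, CDH1 at 0.0266 CPM and CDH5 at 0 CPM in cluster 2. Other members of these lists were higher in cluster 2 than in non-primed cells. In the fibroblast list the ratios were 115 for FAP, 101 for COL1A1, 72.6 for PDGFRA, 17.4 for PDGFRB and 5.51 for DCN. For LUM the ratio was 0.685. Of 6 fibroblast markers at 5 CPM or more, 5 were above the non-primed cells in both replicates and 1 was below. The endothelial adhesion gene PECAM1 was at 23.6 CPM in cluster 2, 11.99 in cluster 8, 27.9 in cluster 9 and 0.183 in non-primed cells, a ratio of 129 to the non-primed cells, and the epithelial keratins KRT8 and KRT18 had ratios of 2.37 and 1.95 to them. Others were lower than in non-primed cells, with a ratio of 0.230 for EGFL7 of the endothelial list and 0.0209 for ESRP1 of the epithelial list. These markers are named for their lists, after their values were seen. The fibroblast list shares COL1A1 and LUM with the gene groups above, and its part in those values was not tested.

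RefSeq promoters (GRCh38.p14, 250 bases before to 50 after a gene's start) were searched on both strands for the interferon-stimulated response element (ISRE, letters GAAA, any 2 bases, GAAA), the AP-1 site (TGANTCA) and an NF-κB site (GGG, any 2 bases, TTTCC), each counted whether or not it overlapped another. Sequences are shown for IFIT1 and IFI6, among the interferon-stimulated genes higher in cluster 2, and for CPA4, whose promoter is described with the chromatin data. Matches are in capitals, and letters run 5′ to 3′ along the gene's strand.
IFIT1 (chr10:89392504-89392532, plus strand, from 116 bases before the start): tagTTTCACTTTCcccTTTCGGTTTCcct
IFI6 (chr1:27672331-27672356, minus strand, from 156 bases before the start): agagagggGAAAATGAAActctgcag
IFI6 (chr1:27672290-27672315, minus strand, from 115 bases before the start): agagagggGAAAATGAAActgcagag
IFI6 (chr1:27672268-27672293, minus strand, from 93 bases before the start): agagtgcaGAAATAGAAActccgaca
CPA4 (chr7:130293105-130293127, plus strand, from 48 bases before the start): tgaggactTGAGTCActctcaga
CPA4 (chr7:130293138-130293160, plus strand, from 15 bases before the start): atacagctTGACTCAgccactgt

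The ISRE letters were in 3.65% of all 27195 promoters, in 17 of the 24 interferon-stimulated genes that had a promoter in the table (70.8%), and in 2 of 23 such promoters among the 38 genes higher than in the other primed clusters (8.70%). In IFIT1 both matches lie on the strand opposite to the gene, so the element reads as its reverse complement. The AP-1 letters were in 7.73% of all promoters and 39 of 555 promoters of the genes higher than in non-primed cells (7.03%), and the NF-κB letters in 1.92% and 15 of 555 (2.70%). Of the 8 markers 3 had a promoter in the table, and 0 of these held any of the 3 motifs. A match describes letters only.

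In the treatment experiment, a separate culture of WM989, the deposited labels name primed cells but not the clusters of the first experiment, so the genes of cluster 2 were followed in all primed cells. The study had called these primed cells by cluster, from the same counts. Below, a gene that rose or fell did so in the sum of cells called primed. Change within cells and change in which cells are called primed cannot be told apart. Primed cells numbered 94 and 165 in the untreated libraries r1 and r2 (2.26% and 4.47% of cells), 1577 and 1757 with TGFB1 (29.1% and 31.3%), 118 and 271 with TGFBRi (2.26% and 4.32%) and 25 and 70 with PI3Ki (0.647% and 1.21%). Their counts were summed by library and compared in edgeR's quasi-likelihood test, two-sided, with terms for treatment and replicate and Benjamini-Hochberg adjustment over 10930 genes. The sample labels call the libraries Mix and Primed, and which of these is r1 was not given in the sources used here. All 3 treatments were compared with the same 2 untreated libraries. With TGFB1 679 genes were higher (6.21%) and 775 lower (7.09%), with TGFBRi 8 higher (0.0732%) and 33 lower (0.302%), and with PI3Ki 51 higher (0.467%) and 144 lower (1.32%). In either direction these were 1454 genes (13.3%), 41 (0.375%) and 195 (1.78%).

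Several markers of cluster 2 were low in these primed cells. Untreated libraries r1 and r2 held CCL2 at 7.45 and 8.05 CPM, G0S2 at 0.745 and 0 CPM and WISP1 at 0.745 and 2.82 CPM, whereas PRSS35 was at 90.2 and 99.4 CPM and IGFBP7 at 203 and 399 CPM. In cluster 2 of the first experiment these genes were at 162, 239.9, 52.0, 187 and 1916 CPM, and the experiments were not compared by a test. The sets of cells are unlike, cluster 2 alone there and all primed cells here. In wells with under 200 cluster 2 cells, cluster 2 was 2.66% to 16.4% of the primed cells, and CCL2 was lower in the others, as given above. The kit here was a later version, and the untreated primed cells had a median of 12424 and 14535 UMIs. MMP3 and WISP1 were too low to be tested.

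The markers did not move together under TGFB1, where 3 of the 6 tested rose and 3 fell, as 6.21% and 7.09% of all genes did. Of these 6 calls only that of PRSS35 was kept in every alternative. PRSS35 was at 9.79 and 18.3 CPM with TGFB1 against 90.2 and 99.4 CPM untreated, both treated libraries lying below both untreated ones. Its log2 fold change was -2.67 ± 0.16 (SE, 2 libraries each, edgeR adjusted p = 3.58e-17), and it remained past the threshold in all 12 alternatives. CEMIP fell from 40.2 and 48.7 CPM to 16.2 and 10.6 CPM, a log2 fold change of -1.70 ± 0.20 (edgeR adjusted p = 2.21e-08), with adjusted p between 1.72e-16 and 0.0947 over 12 alternatives, the highest when 25 primed cells were drawn per library.

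CCL2 rose to 17.7 and 21.6 CPM, a log2 fold change of 1.46 ± 0.28 (edgeR adjusted p = 0.000155), but it missed the threshold in DESeq2 and without the untreated library r2, with adjusted p between 7.02e-07 and 0.0821 over 11 alternatives. IGFBP7 was at 308 and 425 CPM against 203 and 399 CPM, overlapping levels with a log2 fold change of 0.39 ± 0.13 (edgeR adjusted p = 0.0384), which was lost in 6 of 12 alternatives, with adjusted p of up to 0.773, among them those without the untreated library r1 and without either TGFB1 library. G0S2 was at 4.27 and 8.41 CPM with TGFB1, against 1 and 0 counts in the untreated libraries (edgeR adjusted p = 0.000118), a call kept in 8 of 11 alternatives, with adjusted p of up to 0.177, and lost in DESeq2, without the untreated library r2 and without the TGFB1 library r2. CCL5 was at 5.42 and 9.04 CPM against 3.73 and 26.96 CPM, and its fitted fall of 1.03 on the log2 scale (edgeR adjusted p = 0.0179) turned to a difference of 0.50 without the untreated library r2 and of 0.77 without the TGFB1 library r2.

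**Figure D5:**
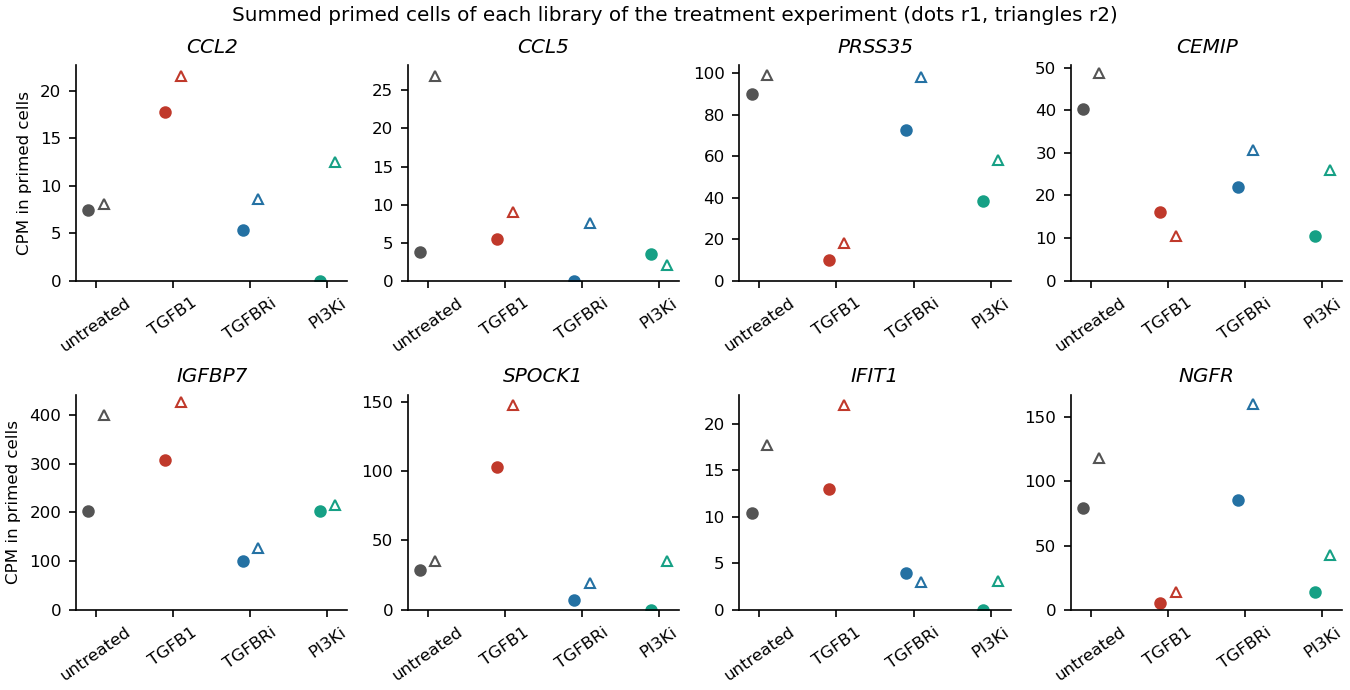
Level (CPM, linear axis from 0) of 8 genes in the summed primed cells of each library of the treatment experiment, untreated or with TGFB1, TGFBRi or PI3Ki (dot r1, triangle r2). PRSS35 and NGFR lie lower in both TGFB1 libraries than in both untreated ones, and SPOCK1 and CCL2 lie higher.

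With TGFBRi, IGFBP7 was at 99.99 and 126 CPM against 203 and 399 CPM untreated. The fall of 1.40 ± 0.15 on the log2 scale (SE, edgeR adjusted p = 3.23e-08) stayed past the threshold in all 12 alternatives. PRSS35, at 72.7 and 98.1 CPM, did not pass it. IFIT1 fell from 10.4 and 17.7 CPM to 3.9995 and 2.97 CPM, by 2.17 ± 0.40 (edgeR adjusted p = 0.00234), with adjusted p between 0.00016 and 0.604 over 10 alternatives, losing the call without the untreated library r2, without the TGFBRi library r2 and without the replicate term. Of 23 interferon-stimulated genes tested, 6 fell with TGFBRi (0.302% of all genes fell), 4 fell with PI3Ki (1.32%) and 3 rose with TGFB1 (6.21% rose). Over all genes the 41 calls with TGFBRi became 9 without the replicate term and 10 in DESeq2.

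With PI3Ki the comparison rested on 25 and 70 primed cells. PRSS35 was at 38.5 and 58.1 CPM, a fall of 0.99 ± 0.23 on the log2 scale (edgeR adjusted p = 0.0103) that missed the threshold in 4 of 12 alternatives, with adjusted p of up to 0.816, among them those without the untreated library r1 and without the PI3Ki library r2. NGFR was at 14.0 and 42.5 CPM against 79.0 and 118 CPM untreated, a log2 fold change of -1.74 ± 0.25 (edgeR adjusted p = 1.99e-05), with adjusted p between 1.75e-09 and 0.19 over 12 alternatives, the higher values without the replicate term and with 25 primed cells per library. With TGFB1 NGFR was at 5.27 and 14.3 CPM, a log2 fold change of -3.28 ± 0.17 (edgeR adjusted p = 4.62e-19). FN1, by contrast, rose with TGFB1, from 3309.8 and 3634 CPM to 8474 and 8855 CPM, and fell with TGFBRi, to 1822 and 1911 CPM, both past the threshold in 12 of 12 alternatives. SPOCK1, a matrix proteoglycan gene among those highest in cluster 2 over non-primed cells, rose with TGFB1 from 29.1 and 35.4 CPM to 103 and 148 CPM (log2 fold change 2.08 ± 0.19, edgeR adjusted p = 1.83e-11), with adjusted p between 2.58e-33 and 0.386 over 12 alternatives, the highest in DESeq2.

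Open chromatin was read in the sorts at the starts of the genes, as the highest fold enrichment of a deposited peak within 500 bases, 0 where none was listed. These are bulk libraries, so that fewer open cells and less opening per cell cannot be told apart, and the sorts are not cluster 2. Over 13474 gene starts with a peak, EGFR-NGFR-High and Mix did not overlap upward at 1525 (11.3%) and downward at 369 (2.74%). Of the 38 genes higher in cluster 2 than in the other primed clusters, 31 had a peak, and 9 were higher and 2 lower without overlap. Of the 724 higher than in non-primed cells, 600 had a peak, and 120 of these were higher without overlap (20%) and 8 lower. These counts depended on single libraries. Without replicate 1 of each sort 169 were higher and 77 lower, against 2360 and 2410 of all starts. Without replicate 2 they were 184 and 32, against 3004 and 1056, and without replicate 3 they were 303 and 18, against 5247 and 709. For a single gene the smallest two-sided p that the exact permutation test of 3 against 3 libraries can give is 0.1.

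Of the 6 markers with a peak, IGFBP7 alone did not overlap upward. A count of 1 of 6 lies near the 11.3% of all starts. Of 16 named genes higher in cluster 2 with a peak, 4 were higher without overlap, IGFBP7, LMO2, CPA4 and CEBPD. Another 1, not described here, was lower (2.74% of all starts). At the start of IGFBP7 (chr4:57110385, minus strand) the EGFR-NGFR-High libraries had fold enrichments of 12.5, 9.92 and 10.9, the Mix libraries 0, 0 and 4.36, the EGFR_High libraries 8.54, 6.62 and 9.79 and the NGFR-High libraries 11.5, 6.12 and 8.46. No share of all starts was computed for EGFR_High or NGFR-High against Mix, so their lack of overlap with Mix at this start cannot be set beside one. LMO2 had fold enrichments of 7.14, 5.67 and 5.95 in EGFR-NGFR-High and no listed peak in Mix. CPA4, whose 2 AP-1 matches are printed above, had 11.0, 5.67 and 7.94 in EGFR-NGFR-High, no peak in Mix or EGFR_High, and 4.37, 0 and 0 in NGFR-High.

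Other genes of cluster 2 had a peak of similar height in both sorts. PRSS35 had 26.2, 19.4 and 18.4 in EGFR-NGFR-High and 26.4, 18.4 and 19.8 in Mix, and CEMIP 33.6, 26.5 and 24.8 against 26.0, 24.0 and 28.1. CCL2 had a peak in 1 EGFR-NGFR-High library, at 5.65, and in 0 of 3 Mix libraries. CCL5, G0S2 and NNMT had no listed peak in any library. Between EGFR_High and NGFR-High, where 94 of 13409 gene starts were higher (0.701%) and 4035 lower (30.1%) without overlap, 0 of the 6 markers with a peak were higher or lower. CEBPD was higher without overlap, with 43.1, 42.1 and 37.7 in EGFR-NGFR-High and 23.3, 24.0 and 30.5 in Mix.

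WM983B, with 731 primed and 718 other cells in 1 library, gave values without a replicate check. Of 6856 genes, 89 were more than 2-fold higher in its primed cells (1.3%) and 47 lower (0.686%). CCL2 was at 512 CPM in primed cells and 91.0 in the others, a ratio of 5.63, and at 572, 44.3, 116 and 380.2 CPM in clusters 0 to 3 of that line. CCL5 was at 77.2 and 8.24 CPM, a ratio of 9.37, and IFIT1 at 64.3 and 26.7 CPM. IGFBP7, at 325 and 304 CPM, did not separate the states, and PRSS35, MMP3 and WISP1 had 0 UMIs in primed cells, which allows up to 0.0755 CPM (exact upper bound). Of the 38 genes higher in WM989 cluster 2 than in the other primed clusters, 18 passed the filter in WM983B, where 8 were higher in primed cells and 0 lower.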

How the data were processed

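Single-cell data were used as the table of UMI counts that the authors deposited for each experiment (10x 3′ libraries, with a later kit version in the WM983B and treatment experiments, Cell Ranger, hg38, aggregated without depth normalization, Cell Ranger version not given in the sources used here). The authors had filtered cells in Seurat V3 on genes per cell, with an upper limit against doublets, and on the percent of mitochondrial reads, and deposited that percent for each cell, with its cluster, state, well, replicate and phase. Kept cells of the first experiment held 4001 to 9994 genes, of 33538 listed. Its wells held 35882876 to 177318308 UMIs each, so counting error is small for sums over many cells and large for the wells with 7 to 28 cluster 2 cells. No cells were removed here and no doublet caller was run. For ATAC-seq the authors aligned reads with Bowtie2 2.3.4.1, processed them with SAMtools 1.1 and picard, and deposited peaks called in each library with MACS2 2.1.1.20160309. In these lists the fold enrichment is the ratio over local background that the authors' peak caller gave, and the deposited −log10 q-value served for an alternative threshold.

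Counts were summed over cells and scaled to 1000000 (CPM). Intervals are exact Poisson or Clopper-Pearson at 95%. Shares of cells with a UMI were computed after thinning each cell to 10000 UMIs (0 cells were shallower). Summed primed cells of the treatment experiment, in libraries with at least 20, were compared in R 4.3.3 with edgeR 4.0.16 (filterByExpr, TMM, quasi-likelihood, terms for treatment and replicate, threshold 0.05), and DESeq2 1.42.0 was an alternative. The test was checked on simulated data for TGFB1 against untreated, where 99 of 100 genes changed by 1 on the log2 scale and 100 of 100 changed by 2 were recovered among 10606 genes, with 7 false calls. The changed genes were drawn from those with a mean of at least 20 CPM. The simulated spread followed a trend over genes and held no replicate effect. Recovery of genes at lower levels, or with the other treatments, was not checked. The pairing of its libraries comes from the study's methods, by which the cells of a well were split over the 4 plates. Replicate differences of 2 treatments correlated across 5861 genes with Pearson's r between 0.0253 and 0.218. The 2 libraries of a treatment may share a stock, so p-values measure the spread between these libraries. Other computations used Python 3.11.15, numpy 2.4.6, scipy 1.17.1, pandas 2.3.3 and matplotlib 3.10.9.

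Members, gene lists and tests were chosen with earlier results of these data known. Named genes were the 8 markers, the 12 genes with the largest and the 12 with the smallest ratio to the other primed clusters, the 12 largest and 8 smallest against non-primed cells (at least 20 CPM, ranked by the replicate with the smaller difference), up to 4 members of each other list at 5 CPM or more, and genes that the study names. In the treatment and chromatin experiments members of the other lists were not named, apart from IFIT1, which is also among the 12. Alternatives were other CPM minimums, G1 cells only, means over wells, leaving out wells or libraries, the deepest cells of each well, other fits and other peak windows or thresholds.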

Additional observations from a re-analysis of the deposited data

Results flagged for a closer look

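SPOCK1, a matrix proteoglycan gene, had opposite directions in the melanoma lines. In WM989 it was at 113 CPM in cluster 2 and 0.415 CPM in non-primed cells, a ratio of 273, and in WM983B it was at 4.18 CPM in primed and 5.99 CPM in other cells, a ratio of 0.697. The difference was not tested, since WM983B has 1 library. Of 31 genes compared between the lines it was the 1 counted as opposite, which required a ratio past 2-fold in WM989. Genes with 3 or fewer counts in a group, or under 5 CPM in both groups of WM983B, were left out. Both WM983B levels of SPOCK1 were under the 20 CPM of the 2-fold rule, and cluster 2 alone was set against all primed cells of WM983B. Dixon's gap test was used to look for 1 well far from all others, and of 26 groups of wells 0 had one. For gene levels it used only wells with at least 20 cluster 2 cells. The test cannot flag a split of the wells into 4 and 4, as in the share of cluster 2, so it does not show that wells are alike.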

How the results depend on the processing

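The share of cluster 2 among all cells, 12.7%, was 11.9% in r2 alone and lay between 7.43% (without well 2) and 18.2% (without well 4) when wells were left out in turn, since the wells differ in their share. With a minimum of 5 CPM in place of 20, the genes past the 2-fold rule numbered 64 higher against the other primed clusters, 1265 higher and 974 lower against non-primed cells, 179 higher and 123 lower against cluster 8, and 119 higher against cluster 9. With 50 CPM they were 19 higher and 100 lower, 407 and 303, 55 and 13, and 20 and 169 in the same order of comparisons. Among G1 cells they were 59 higher and 60 lower against the other primed clusters, 28 lower against cluster 8 and 101 higher against cluster 9. Means over wells gave 60 higher against cluster 8, 34 of them among the 96. Within the wells with at least 200 cluster 2 cells, a choice made after seeing the data, 73 were lower than in cluster 8. Of 322 ratios of named genes, 172 were past the 2-fold rule. Of these 0 turned when a well was left out and 11 turned among G1 cells, on the log2 scale against non-primed cells KIF2C to 0.50, ASPM to 0.52, RRM2 to 0.87, CENPA to 0.53, SPC25 to 0.68, HJURP to 2.49, CCNA2 to 0.71, CDCA3 to 0.24, TOP2A to 0.80, FAM83D to 0.73 and CDC45 to 0.19. Leaving out the 1 cell with most UMIs, also chosen after seeing the data, turned 0 of the 172. Of the 150 ratios not past the rule, 7 crossed 1 when a well was left out, 14 among G1 cells and 10 within the wells with at least 200 cluster 2 cells. Without thinning, the shares of cluster 2 cells with a UMI were 74.6% for CCL2, 23.7% for CCL5, 90.8% for PRSS35, 15.6% for MMP3, 80.6% for CEMIP, 58.3% for G0S2, 60.5% for WISP1 and 99.9% for IGFBP7.

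In the treatment experiment 1454 genes passed the threshold with TGFB1, 615 in DESeq2, 256 with 25 primed cells per library and 584 to 1726 with a library left out, the lowest without the TGFB1 library r1. With TGFBRi the 41 became 10 in DESeq2, 5 with 25 cells and 17 to 63 with a library left out, and with PI3Ki the 195 became 28 with 25 cells and 96 to 239. Without the replicate block the counts were 1358, 9 and 87, and 18 of the 58 calls of named genes were lost. Fitted log2 changes that turned when a library was left out ranged for CCL2 from -0.41 to 0.068 with TGFBRi and from -8.58 to 0.54 with PI3Ki, for CCL5 from -1.51 to 0.77 and for EREG from -4.06 to 1.42 with TGFB1, for PRSS35 from -0.49 to 0.10 with TGFBRi (0.28 with 25 cells) and for G0S2 from -5.87 to 0.12 with PI3Ki. The cause was not tested.

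Replicate numbers of the ATAC libraries pair no samples (r of deviations between -0.0230 and 0.106), and with such a replicate block the smallest p is 0.25. With 1 replicate left out, 1 to 3 of 5 to 6 markers with a peak were higher in EGFR-NGFR-High and 0 to 1 lower. The 4 named genes higher in cluster 2 that were higher there became 5 to 7 of 14 to 16, and the 1 lower 2 to 3. Of all starts, 17.7% to 39.3% were then higher and 5.31% to 18.1% lower. With only peaks of −log10 q of at least 10 the 4 became 2 of 12, and 11.0% of all starts were higher. Between EGFR_High and NGFR-High 0 to 3 of 6 markers were lower, and of 13 to 15 named genes 0 to 1 were higher and 3 to 6 lower. With 1 replicate left out, 2.48% to 4.04% of all starts were higher in this comparison and 40.3% to 57.7% lower. The difference in mean fold enrichment ranged from -0.87 to 0.37 for PRSS35 and from -0.42 to 5.03 for CEMIP, and in a window of 2000 bases that of SOX10 turned to -1.88.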
